A study of Oryza sativa Japonica Group with 30 samples.

Results

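Transcript levels of 8 photoreceptor and light signalling genes were measured in leaves of rice with and without SNAC1 overexpression, under normal watering and under drought. The genes were picked by name and identifier for their known roles, by a rule that uses no measured value but was set with earlier results of these data known, and all 8 were found among the 55490 features of the expression table. They were the 3 phytochromes PHYA (LOC_Os03g51030), PHYB (LOC_Os03g19590) and PHYC (LOC_Os03g54084), the 3 cryptochromes CRY1a (LOC_Os02g36380), CRY1b (LOC_Os04g37920) and CRY2 (LOC_Os02g41550), COP1 (LOC_Os02g53140) and OsPIL1 (LOC_Os03g56950). By their MSU identifiers PHYA, PHYB, PHYC and OsPIL1 lie on chromosome 3, CRY1a, CRY2 and COP1 on chromosome 2, and CRY1b on chromosome 4. All 8 passed the filter on low values, a mean of at least 1 FPKM (a fragment count divided by transcript length and by the depth of the library), which 19979 features passed.

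ZH11 (Zhonghua 11) is the japonica variety that received the transgene and served as the wild type. OE-19 is a single transgenic line of ZH11 that carries the full SNAC1 coding sequence behind a maize ubiquitin promoter, which is active in most tissues. Both genotypes were grown together in pots, 10 plants of each, and were sampled at the 4-leaf stage either under normal watering (ZH11-N and SNAC1-N) or after water had been withheld for 10 to 15 days, until leaves curled and yellowed (ZH11-D and SNAC1-D). Each of the 4 groups had 3 RNA-Seq libraries from leaves, 12 in all. The time of day of the harvest is not given in the sources used here.

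Plants read light through phytochromes, which sense red and far-red light, and cryptochromes, which sense blue light. In Arabidopsis, active photoreceptors restrain the ubiquitin ligase COP1, which marks greening factors for breakdown in the dark. Phytochromes there also remove PIF factors, the basic helix-loop-helix proteins that promote elongation. OsPIL1 is a rice factor of the PIF-like group that promotes internode elongation and is known as a drought-repressed growth regulator, a property that is part of how it was chosen here.

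The labels were first checked on SNAC1 itself (LOC_Os03g60080). Its FPKM was 764, 995 and 781 in SNAC1-N against 27.2, 44.8 and 39.7 in ZH11-N, and 667, 981 and 747 in SNAC1-D against 329, 530 and 430 in ZH11-D. Both pairs of groups were separated without overlap. In limma's moderated test SNAC1 passed in OE-19 against ZH11 under normal watering (log2FC 4.51, adjusted p = 1.03e-05). It did not pass under drought (log2FC 0.90, adjusted p = 0.949). In ZH11 its level was higher under drought than under normal watering (log2FC 3.52). Leaf markers (6 small Rubisco subunit and light-harvesting genes) summed to between 39121 and 64535 FPKM in the normal libraries and to between 9182 and 19059 in the drought libraries. The sum of 4 root markers was 8.43 to 16.8 FPKM over all libraries, and 3 of these 4 never reached 1 FPKM. Of 2 meristem and panicle markers, 1 never reached 1 FPKM and their sum was at most 4.82. The marker loci were assigned from general knowledge, and the part of the lower leaf marker sum under drought in the results below was not tested. Since the samples are whole leaves, fewer cells of a type and less RNA per cell cannot be told apart.

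Both normal libraries numbered 1, one of each genotype, stood apart before any comparison with drought was made. For 8 of the 8 genes these 2 libraries lay outside the range of the other 4 normal libraries, on the same side in both genotypes, whereas 63.1% of all features tested did so. For the normal libraries numbered 2 this held for 2 of the 8 genes (19.7% of features), and for those numbered 3 for 1 (7.38%). The 3 phytochromes were higher in the libraries numbered 1 and the other 5 genes were lower. COP1 was 18.6 and 21.3 FPKM there and 45.6 to 64.9 in the other 4 normal libraries, 2.72-fold lower by the means. CRY1a was 23.5 and 27.5 FPKM against 42.2 to 55.9, 1.91-fold lower. PHYC was 1.68-fold higher, with means of 16.0 and 9.53 FPKM.

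Circadian clock genes and their partners moved in the same 2 libraries. OsPRR1, a pseudo-response regulator of the clock, had 31.2 and 34.6 FPKM in these libraries and 3.18 to 4.33 in the other 4. OsGI, the GIGANTEA gene that links the clock to flowering, had 241 and 257 FPKM against 88.4 to 129. OsFKF1, whose Arabidopsis counterpart is a blue-light receptor of the F-box type and works with GIGANTEA, had 52.9 and 58.3 FPKM against 0.609 to 0.999, a 65.8-fold difference of the means. In all, 7 of 7 clock loci examined lay outside the range of the other 4 normal libraries, beside the 63.1% of all features. Their directions were mixed, with 5 higher in the libraries numbered 1 and 2 lower, by 1.43-fold and 48.8-fold of the means. The 2 chlorophyll breakdown genes split, with NYC1 at 85.4 and 101 FPKM against 35.2 to 39.5 and SGR at 10.8 and 13.2 against 27.1 to 50.6. The part of these differences in the results for the 8 genes was not tested, and the drought results are therefore given also without both libraries, a choice made after seeing the data.

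**Figure D1:**
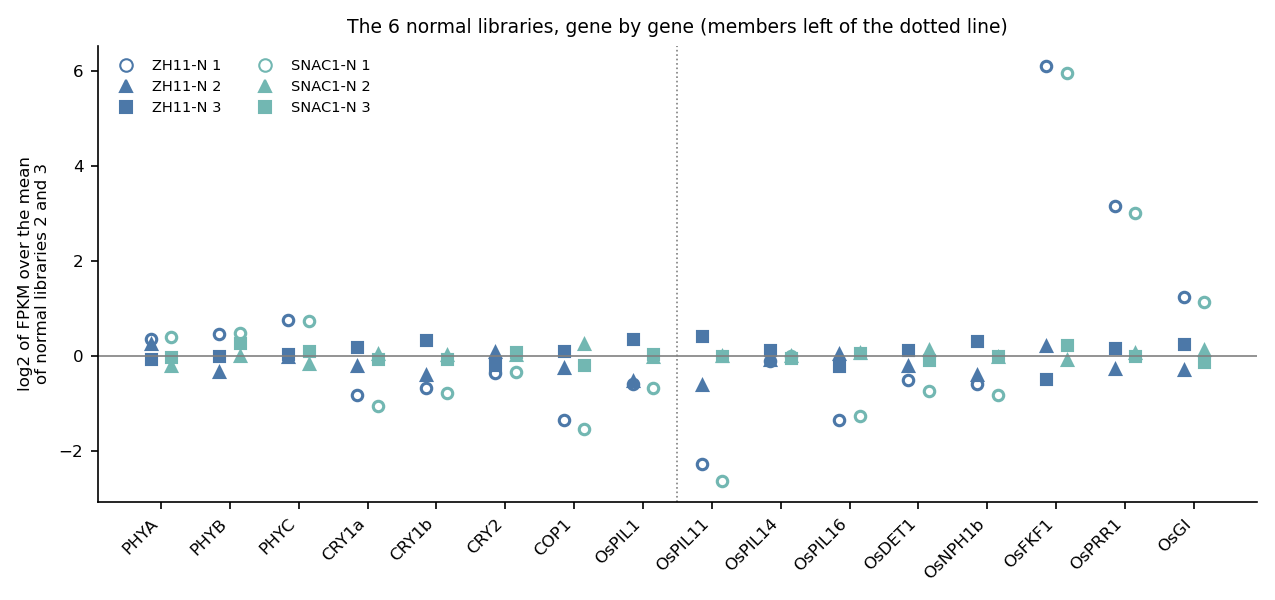
The 6 libraries from normal watering are plotted gene by gene as log2 of FPKM over the mean of the libraries numbered 2 and 3, with colours for the genotypes and open circles for the libraries numbered 1. The open circles lie together and away from the filled symbols for COP1, CRY1a and PHYC among the 8 genes, and far above them for OsFKF1 and OsPRR1.

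The first question was how drought changed these transcripts within each genotype. In ZH11, 3 of the 8 genes passed an adjusted p of 0.05 in limma's moderated test (PHYA higher, CRY1b and OsPIL1 lower), against 54.3% of all features tested (28.3% higher and 26% lower). In OE-19 the same 3 genes passed in the same directions, against 53.4% (27.9% higher and 25.5% lower). By the study's criterion for DEGs, which adds a log2FC of at least 1 in size, OsPIL1 was a DEG in ZH11 (1 of 8 against 32% of features), and PHYA and OsPIL1 were DEGs in OE-19 (2 of 8 against 31%). The median log2FC of the 8 genes was 0.27 in ZH11 and 0.14 in OE-19, beside 0.06 and 0.07 over all features.

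**Figure D2:**
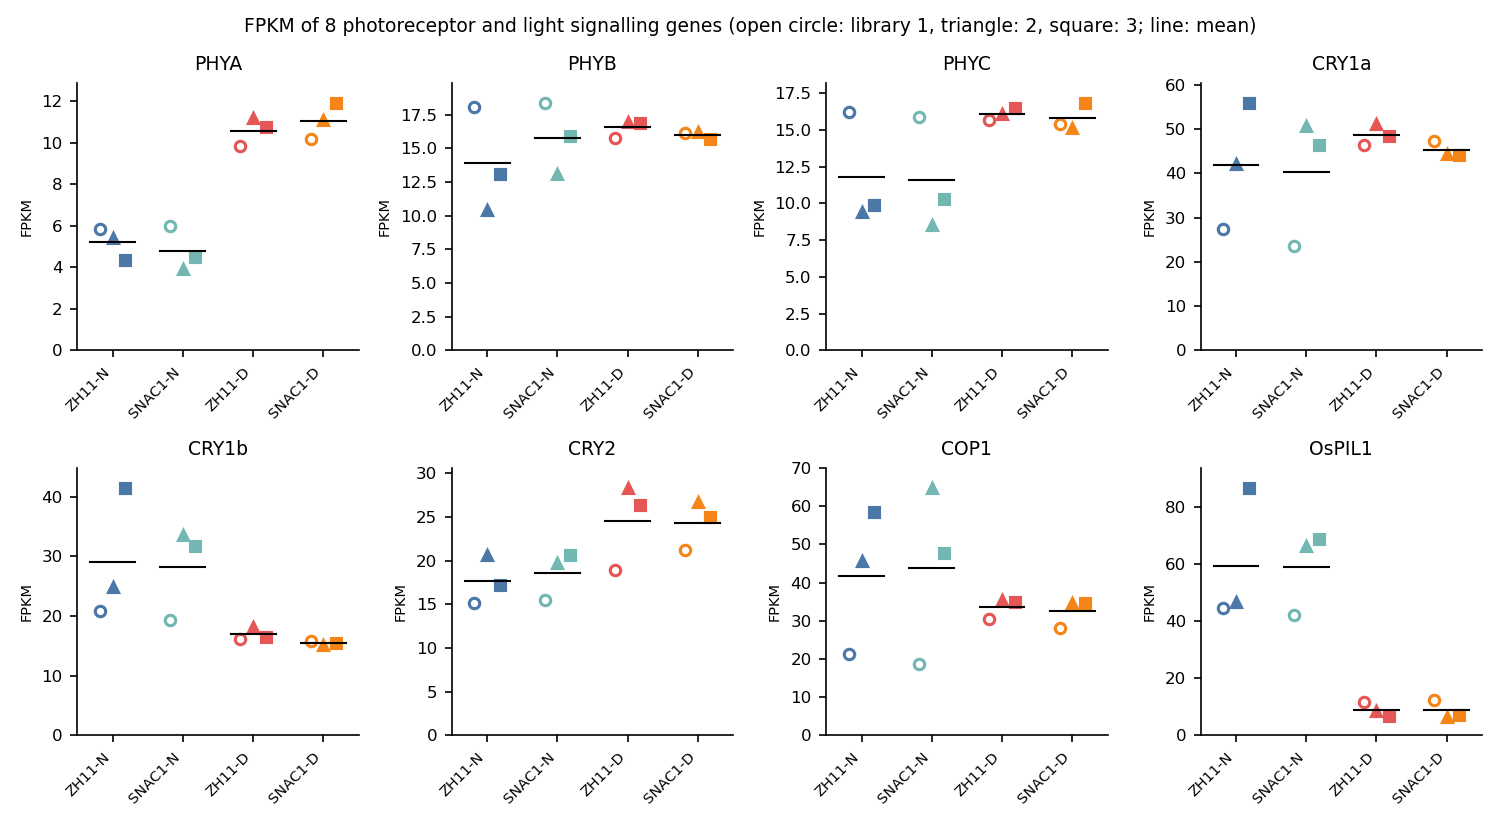
FPKM of each of the 8 genes in every library, grouped by genotype and watering, with symbols for the library number and a line at the mean of 3 libraries. PHYA is higher and OsPIL1 lower in all 6 drought libraries than in any of the 6 normal ones, and most genes spread more widely among the normal libraries than among the drought libraries.

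OsPIL1 had the largest response of the 8. Its FPKM was 44.7, 46.6 and 86.8 in ZH11-N and 11.7, 8.35 and 6.62 in ZH11-D. In SNAC1-N it was 42.0, 66.4 and 68.8, and in SNAC1-D 12.4, 6.39 and 7.10. The lowest normal library was thus above 3 times the highest drought library in either genotype. The transcript fell by 2.64 on the log2 scale in ZH11 (standard error 0.341, adjusted p = 0.000132 in limma) and by 2.73 in OE-19 (standard error 0.341, adjusted p = 0.000118 in limma). A log2FC as low or lower was found for 4.93% of features tested in ZH11 and 4.41% in OE-19. Without both normal libraries numbered 1 the values were -2.81 and -2.96.

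The order of levels turned over with it, since FPKM is scaled to transcript length and can be compared between genes. Under normal watering OsPIL1 had the highest mean of the 8 in both genotypes, 59.4 FPKM in ZH11-N and 59.1 in SNAC1-N, although its range overlapped those of COP1 and CRY1a. Under drought it had the lowest, 8.89 FPKM in ZH11-D and 8.64 in SNAC1-D, with a range that overlapped that of PHYA. PHYA was the lowest of the 8 under normal watering, below PHYC in every library of either genotype.

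Among the phytochromes, PHYA rose and the other 2 did not pass in either genotype. PHYA encodes the phytochrome that accumulates in the dark and senses far-red light. Its FPKM was 5.84, 5.41 and 4.32 in ZH11-N and 9.83, 11.2 and 10.7 in ZH11-D. In SNAC1-N it was 5.97, 3.90 and 4.47, and in SNAC1-D 10.2, 11.1 and 11.9. All 6 drought libraries lay above all 6 normal libraries. The log2FC was 0.97 in ZH11 with an adjusted p of 0.000571 in limma (standard error 0.159) and 1.15 in OE-19 with an adjusted p of 0.00022 (standard error 0.159). A log2FC as high or higher was found for 15.5% of features in ZH11. Without both normal libraries numbered 1 the values were 1.05 and 1.30.

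PHYB encodes the main receptor for red light in green plants. Its FPKM was 18.1, 10.5 and 13.1 in ZH11-N, 15.8, 17.0 and 16.9 in ZH11-D, 18.4, 13.1 and 15.9 in SNAC1-N, and 16.2, 16.2 and 15.7 in SNAC1-D. The drought libraries lay inside the normal range. The log2FC was 0.28 in ZH11 (95% interval -0.13 to 0.69, limma adjusted p = 0.228) and 0.03 in OE-19 (95% interval -0.38 to 0.44, limma adjusted p = 0.901). Without both normal libraries numbered 1, the value in ZH11 was 0.48 and passed (limma adjusted p = 0.00767), and that in OE-19 was 0.14 and did not (limma adjusted p = 0.325).

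PHYC, the third phytochrome, forms pairs with phytochrome B in Arabidopsis and takes part in the control of flowering in rice. Its FPKM was 16.2, 9.39 and 9.87 in ZH11-N, 15.7, 16.1 and 16.5 in ZH11-D, 15.8, 8.53 and 10.3 in SNAC1-N, and 15.4, 15.1 and 16.8 in SNAC1-D. The drought libraries were close together, and the 2 normal libraries numbered 1 were at their level. The log2FC was 0.47 in ZH11 (limma adjusted p = 0.117) and 0.48 in OE-19 (limma adjusted p = 0.114). It was 0.71 (limma adjusted p = 0.000431) and 0.72 (limma adjusted p = 0.000425) without both libraries numbered 1, and the 6 drought libraries then lay above the remaining 4 normal libraries.

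The composition of the phytochrome transcripts differed accordingly. PHYA made up 14.5% to 21.4% of the summed FPKM of the 3 genes in the normal libraries and 23.8% to 26.8% in the drought libraries. The ratio of PHYA to PHYB was 0.281 to 0.517 under normal watering and 0.622 to 0.760 under drought, and that of PHYB to PHYC was 1.11 to 1.54 and 0.930 to 1.07. These ratios were chosen after seeing the data and are given as a description without a test. Unlike the levels of PHYB and PHYC, they did not overlap between the conditions with the libraries numbered 1 included. How often ratios of other gene pairs separate the conditions was not computed. Of single features, 51.3% did so, PHYA among them.

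Among the cryptochromes, CRY1b fell and its paralog CRY1a did not pass. Both encode blue-light receptors that restrain seedling elongation. For CRY1b the FPKM was 20.8, 24.9 and 41.6 in ZH11-N, 16.1, 18.2 and 16.5 in ZH11-D, 19.3, 33.6 and 31.8 in SNAC1-N, and 15.8, 15.1 and 15.4 in SNAC1-D. Each drought library lay below each normal library, while the normal libraries spread widely. CRY1b fell by 0.70 on the log2 scale in ZH11 with an adjusted p of 0.0416 in limma (standard error 0.259) and by 0.81 in OE-19 with an adjusted p of 0.0234 (standard error 0.259). Without both normal libraries numbered 1 the values were -0.91 (limma adjusted p = 0.00243) and -1.06 (limma adjusted p = 0.00112). The call in ZH11 was close to the threshold and passed in 12 of 23 alternatives, with limma adjusted p-values from 0.00243 to 0.152. It was lost when any 1 of the 6 drought libraries, SNAC1-N replicate 3, ZH11-N replicate 2 or ZH11-N replicate 3 was left out, the last of which gave a log2FC of -0.42. The call in OE-19 was lost without SNAC1-D replicate 2 or 3 or SNAC1-N replicate 2 or 3, with limma adjusted p-values of 0.0638, 0.0600, 0.0849 and 0.0797.

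CRY1a was 27.5, 42.2 and 55.9 FPKM in ZH11-N, 46.5, 51.0 and 48.4 in ZH11-D, 23.5, 50.7 and 46.5 in SNAC1-N, and 47.4, 44.4 and 44.2 in SNAC1-D. The groups overlapped. Its log2FC was 0.27 in ZH11 (95% interval -0.40 to 0.94, limma adjusted p = 0.471) and 0.24 in OE-19 (95% interval -0.42 to 0.91, limma adjusted p = 0.517). Without the libraries numbered 1 the intervals narrowed to between -0.29 and 0.29 and to between -0.39 and 0.19.

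The ratio of CRY1a to CRY1b separated the conditions widely. It was 1.22 to 1.69 in the 6 normal libraries and 2.80 to 2.99 in the 6 drought libraries. In the libraries numbered 1 both genes were low, and their ratio of 1.22 in SNAC1-N and 1.32 in ZH11-N was at the lower end of the normal range. The ratio of CRY1b to CRY2 was 1.21 to 2.41 under normal watering and 0.567 to 0.849 under drought, whereas that of CRY1a to CRY2 overlapped. These are descriptions as well, with no share for other gene pairs beside them, and CRY1b alone already separated the conditions. How the authors assigned reads that match both paralogs is not given in the sources used here.

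**Figure D3:**
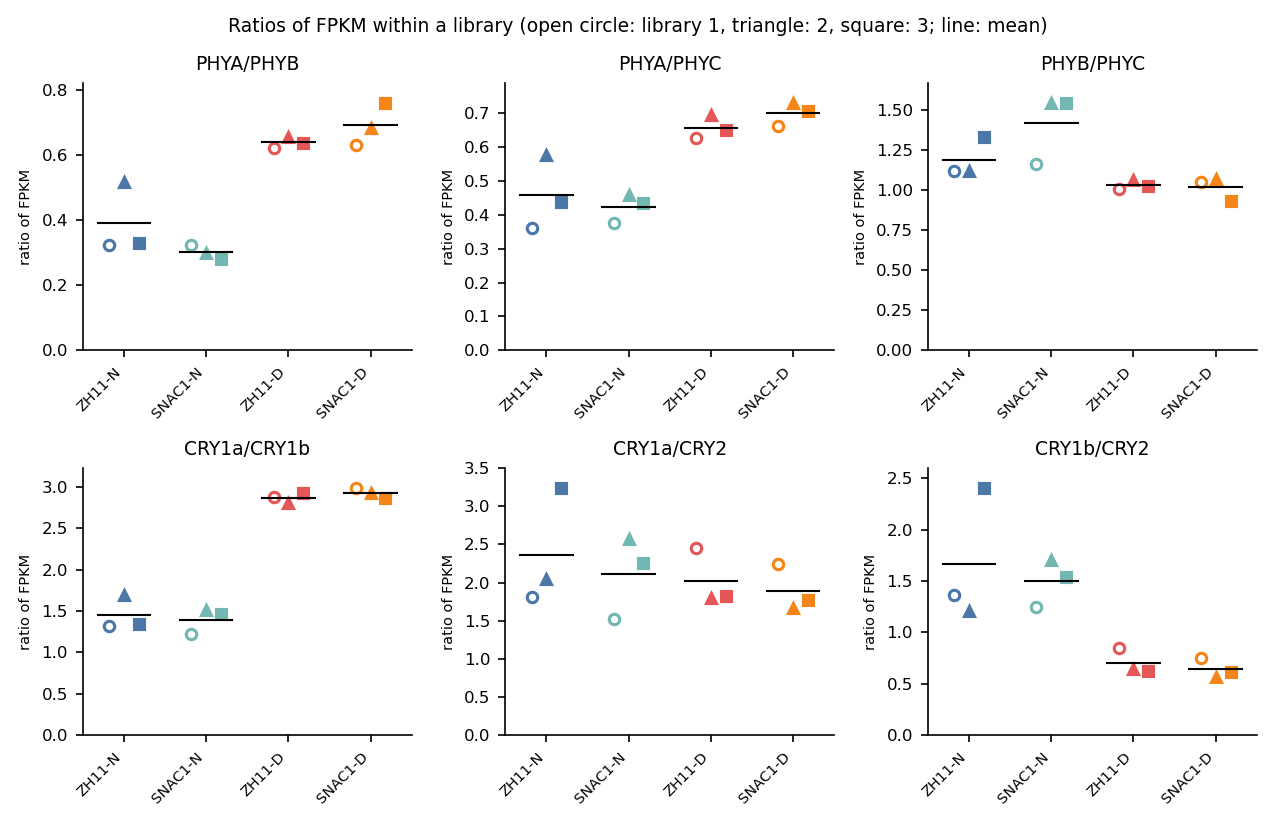
Ratios of FPKM between 2 phytochromes or 2 cryptochromes within each library, with symbols for the library number and a line at the mean of 3 libraries. The ratio of CRY1a to CRY1b is 1.22 to 1.69 in the normal libraries and 2.80 to 2.99 in the drought libraries, and only the ratio of CRY1a to CRY2 overlaps between the conditions.

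CRY2 encodes the cryptochrome known in rice for promoting flowering. Its FPKM was 15.2, 20.6 and 17.2 in ZH11-N, 19.0, 28.4 and 26.4 in ZH11-D, 15.5, 19.7 and 20.6 in SNAC1-N, and 21.2, 26.7 and 25.0 in SNAC1-D. Only ZH11-D replicate 1 lay within the normal range. The log2FC was 0.46 in ZH11 (limma adjusted p = 0.0633) and 0.38 in OE-19 (limma adjusted p = 0.112). The values were 0.35 (limma adjusted p = 0.111) and 0.26 (limma adjusted p = 0.236) without both normal libraries numbered 1. The call in ZH11 turned on single libraries, since CRY2 passed without ZH11-D replicate 1 (0.63, limma adjusted p = 0.0157) or ZH11-N replicate 2 (0.57, limma adjusted p = 0.0425), and it passed with quantile normalization (0.39, limma adjusted p = 0.0436).

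COP1 had the widest spread among the normal libraries, with a coefficient of variation of 44.5% against 9.02% among the drought libraries. Its FPKM was 21.3, 45.6 and 58.5 in ZH11-N, 30.5, 35.5 and 35.0 in ZH11-D, 18.6, 64.9 and 47.9 in SNAC1-N, and 28.2, 34.6 and 34.5 in SNAC1-D. The drought libraries fell between the low libraries numbered 1 and the other normal libraries. The log2FC was -0.19 in ZH11 (95% interval -1.19 to 0.80, limma adjusted p = 0.734) and -0.26 in OE-19 (95% interval -1.25 to 0.73, limma adjusted p = 0.646). Without both libraries numbered 1, COP1 was -0.61 (limma adjusted p = 0.0121) and -0.78 (limma adjusted p = 0.00387), and the conditions did not overlap.

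In the fit without these 2 libraries, 6 of the 8 genes passed in ZH11, against 68.1% of features, and 5 in OE-19, against 67%. In the mean of both genotypes 6 passed, against 77.4%. PHYC and COP1 were added in both genotypes, and PHYB in ZH11. The DEGs were then PHYA and OsPIL1 in ZH11 (2 of 8 against 36.7% of features) and these 2 with CRY1b in OE-19 (3 of 8 against 35.6%). In terms of overlap, the 6 drought libraries lay wholly on one side of all 6 normal libraries for 3 of the 8 genes (PHYA, CRY1b and OsPIL1), against 51.3% of features, and wholly on one side of the 4 remaining normal libraries for 5 (PHYC and COP1 added), against 68.5%.

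**Figure D4:**
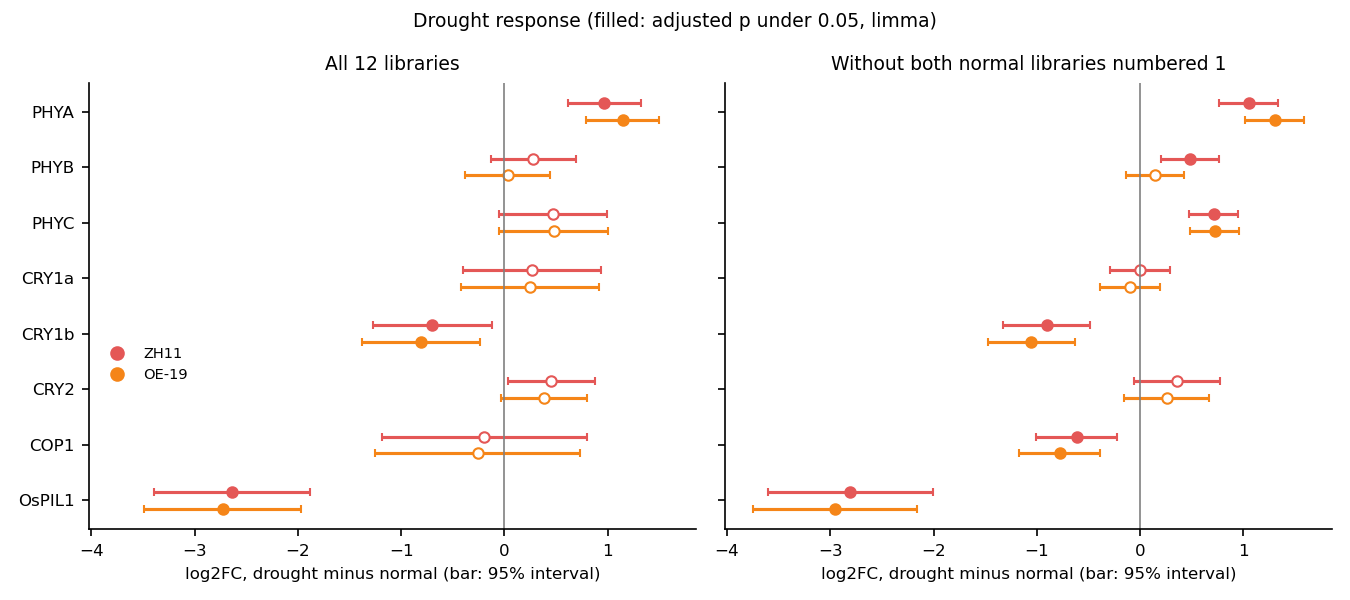
Drought log2FC of the 8 genes in ZH11 and OE-19 with its 95% interval, from all 12 libraries on the left and without both normal libraries numbered 1 on the right, with filled points for an adjusted p under 0.05. On the left OsPIL1 lies near -2.7 and PHYA near 1. On the right OsPIL1 is at -2.81 in ZH11 and -2.96 in OE-19, PHYA is at 1.05 and 1.30, and the PHYC and COP1 points become filled.

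Taking both genotypes together, 5 of the 8 genes passed in the mean of the 2 drought responses, against 67% of features. PHYA (1.06), PHYC (0.47, limma adjusted p = 0.0279) and CRY2 (0.42, limma adjusted p = 0.0173) were higher, and CRY1b (-0.75, limma adjusted p = 0.00413) and OsPIL1 (-2.68) were lower. In an exact permutation test within genotypes, two-sided, p was 0.005 for PHYA, CRY1b and OsPIL1, the smallest that this test can give, 0.02 for CRY2 and 0.055 for PHYC. It was 0.285 for PHYB, 0.36 for CRY1a and 0.505 for COP1. The permutation and the limma fit above both treated the 12 libraries as independent, although the genotypes shared pots. With libraries of one number as a block within each watering condition, the same 5 genes passed, but 3 with larger p-values. The limma adjusted p was then 0.0489 for CRY2, 0.0436 for PHYC and 0.0227 for CRY1b. With pots as the unit, 3 against 3, an exact test would allow no p under 0.1. The PHYC call held in 13 of 22 alternatives, and that of CRY2 was lost only without both libraries numbered 1 (limma adjusted p = 0.0541). The PHYC call was lost without SNAC1-D replicate 3, SNAC1-N replicate 2 or 3, ZH11-D replicate 2 or 3, or ZH11-N replicate 2 or 3, with limma adjusted p-values of 0.0506 to 0.0653, and with other scalings of the libraries (0.069 with the median ratio and 0.080 with quantile normalization).

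Drought libraries differed by number as well, though less. Those numbered 1 lay outside the other 4 drought libraries for 4 of the 8 genes (PHYA, CRY2, COP1 and OsPIL1), beside 44.9% of features. OsPIL1 had a mean of 12.1 FPKM in these 2 libraries and 7.12 in the other 4, COP1 29.4 and 34.9, CRY2 20.1 and 26.6, and PHYA 10.0 and 11.2. For OsPIL1, CRY2 and PHYA the libraries numbered 1 were thus on the side of the normal libraries.

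The second question was whether SNAC1 overexpression changed these transcripts. In OE-19 against ZH11, 0 of the 8 genes passed under normal watering (0.27% of features did) and 0 under drought (0.325%), and 0 had an unadjusted p under 0.05 in limma in either comparison. SNAC1 itself did not pass under drought (log2FC 0.90, limma adjusted p = 0.949), so a missing call there does not show equal levels. Under normal watering the log2FC of the 8 genes ranged from -0.12 for PHYA to 0.20 for PHYB, and under drought from -0.13 for CRY1b to 0.06 for PHYA. The widest 95% intervals were those of COP1, from -0.98 to 1.00 under normal watering and from -1.05 to 0.94 under drought. The intervals of PHYA were narrower, from -0.47 to 0.24 and from -0.29 to 0.41. OsPIL1 had a log2FC of 0.03 (95% interval -0.73 to 0.79) and -0.06 (-0.82 to 0.70), so that a difference of 1 in either direction lay outside its intervals. Without both normal libraries numbered 1, 0 of the 8 passed again (0.33% and 0.35% of features). The genotypes shared pots, and a fit that pairs libraries of one number within a watering condition gave narrower intervals with 0 of the 8 passing (0.385% and 0.34% of features). In it COP1 lay between -0.35 and 0.37 under normal watering and between -0.42 and 0.31 under drought. PHYB was higher in OE-19 in 3 of 3 normal pairs, with a paired interval of 0.0011 to 0.40 and an adjusted p of 0.791 in limma (0.0491 unadjusted). Correlations between the libraries bore out this pairing for number 1 but did not tell 2 from 3 under normal watering.

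The difference of the drought responses between the genotypes was tested directly. It passed for 0 of the 8 genes, with 0 unadjusted p-values under 0.05 in limma, and for 0.02% of all features. The differences ranged from -0.25 for PHYB (95% interval -0.83 to 0.33) to 0.18 for PHYA (95% interval -0.32 to 0.68). For COP1 the interval was -1.47 to 1.34, and for OsPIL1 it was -1.16 to 0.98. In the paired fit these intervals were -0.58 to 0.45 and -0.67 to 0.49, and 0 of the 8 genes passed (0.01% of features). These widths do not allow smaller differences to be told from none. PHYA was a DEG in OE-19 alone because its log2FC of 0.97 in ZH11 fell just short of 1, and not by a difference that was shown.

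The other light signalling genes were examined as a list of 20 loci, of which 18 were in the table and tested. The list was drawn up from general knowledge, and 6 of its loci are named with an identifier in the study's list of published genes bound by SNAC1, a selected set. In ZH11, 1 of the 18 was higher, 3 were lower and 14 did not pass, where 28.3% of all features were higher and 26% lower. In OE-19 the numbers were 1, 4 and 13, where 27.9% of features were higher and 25.5% lower. The median log2FC was -0.21 and -0.26, beside 0.06 and 0.07 over all features. Both normal libraries numbered 1 lay outside the other 4 for 16 of the 18, beside 63.1% of features. Without them, 3 were higher and 8 lower in ZH11 (35.1% and 33% of features), and 4 higher and 12 lower in OE-19 (34.9% and 32.1%). Between genotypes 0 of the 18 passed in either watering condition.

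Of the 6 named loci, OsPIL14 and OsDET1 passed within each genotype with all libraries. OsPIL14 (LOC_Os07g05010), a PIF-like factor as OsPIL1 is, had 7.97, 8.02 and 9.38 FPKM in ZH11-N and 3.92, 4.41 and 3.73 in ZH11-D. It had 8.58, 8.51 and 8.27 in SNAC1-N and 4.94, 3.71 and 3.22 in SNAC1-D. It fell by 0.99 on the log2 scale in ZH11 (limma adjusted p = 0.000282) and by 1.03 in OE-19 (limma adjusted p = 0.00024). Its normal libraries numbered 1 did not stand apart from the others, and without them its log2FC was -1.02 in both genotypes.

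OsDET1 (LOC_Os01g01484), whose Arabidopsis counterpart represses light responses together with COP1, had 10.7, 13.1 and 16.6 FPKM in ZH11-N and 7.78, 7.71 and 7.94 in ZH11-D. It had 9.12, 16.8 and 14.5 in SNAC1-N and 8.06, 7.63 and 7.74 in SNAC1-D. OsDET1 fell by 0.73 in ZH11 (limma adjusted p = 0.0141) and by 0.71 in OE-19 (limma adjusted p = 0.0169). Every drought library was below every normal library. Without the libraries numbered 1 the values were -0.88 and -0.95.

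OsPIL11 (LOC_Os12g41650), OsPIL16 (LOC_Os05g04740), OsNPH1b (LOC_Os04g23890) and OsFKF1 (LOC_Os11g34460) did not pass in either genotype with all libraries, although OsPIL16 passed in the mean of both (0.78, limma adjusted p = 0.0323). The PIF-like OsPIL11 had 4.53, 14.5 and 29.5 FPKM in ZH11-N, 5.98, 9.10 and 5.40 in ZH11-D, 3.56, 22.1 and 22.0 in SNAC1-N and 5.49, 6.74 and 6.48 in SNAC1-D. Its normal libraries numbered 1 were below every other library, the drought libraries included. Without them its log2FC was -1.57 in ZH11 (limma adjusted p = 0.00158) and -1.75 in OE-19 (limma adjusted p = 0.000923). OsFKF1 was 2.97 to 4.45 FPKM in the 6 drought libraries, between the 2 sets of normal libraries, and its log2FC without the libraries numbered 1 was 1.76 (limma adjusted p = 0.000106) and 1.60 (limma adjusted p = 0.000179). OsPIL16 was 15.5 and 16.3 FPKM in the normal libraries numbered 1, 34.1 to 41.4 in the other 4 and 40.0 to 56.7 under drought. OsNPH1b, a phototropin gene, was 69.0 to 151 FPKM under normal watering and 77.9 to 89.0 under drought. Without the libraries numbered 1 its log2FC was -0.45 in ZH11 (limma adjusted p = 0.0566) and -0.55 in OE-19, where it passed (limma adjusted p = 0.0283).

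Of the named PIF-like genes OsPIL1, OsPIL14 and OsPIL11 thus had negative values without the libraries numbered 1, and OsPIL16 had positive ones (0.32 in ZH11, limma adjusted p = 0.0891, and 0.39 in OE-19, limma adjusted p = 0.0474). By FPKM, OsPIL1 was the highest of these 4 in every normal library, and OsPIL16 was the highest in every drought library. This does not hold for the whole group. A further PIF-like locus of the list was above OsPIL1 in SNAC1-N replicate 2 (80.5 against 66.4) and ZH11-N replicate 2 (65.0 against 46.6). It was above OsPIL16 in ZH11-D replicate 2 (45.5 against 40.0). Without the libraries numbered 1 its log2FC in ZH11 was -0.58 (limma adjusted p = 0.0037).

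Likeness of pattern was measured by Pearson's r of log2(FPKM + 0.5) over the 12 libraries and is given as a description. The libraries come from both watering conditions, so any difference between normal and drought enters r. The 5 annotated features most like OsPIL1 were LOC_Os07g28610 (0.997), LOC_Os08g13250 and LOC_Os03g41510 (both 0.996), LOC_Os07g09040 (0.995) and LOC_Os03g22780 (0.994), and 3191 features had an r of at least 0.9 with it. The feature most like COP1 was LOC_Os10g08580 (0.993), the photolyase gene qUVR-10. For the other genes it was LOC_Os07g36420 for PHYA (0.995), LOC_Os02g04270 for PHYC (0.992), LOC_Os08g41040 for CRY1a (0.992), LOC_Os09g07570 for CRY1b (0.993) and LOC_Os04g56590 for CRY2 (0.985). PHYB was the exception, with LOC_Os11g47930 at 0.948 and only 4 features at 0.9 or more.

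Among the 8 genes themselves, PHYA and OsPIL1 were the most opposed (r = -0.98 over the 12 libraries), and PHYA and CRY1b were opposed as well (-0.91). CRY1b and OsPIL1 went together (0.89), as did PHYA and PHYC (0.82), PHYB and PHYC (0.80) and COP1 and CRY1a (0.79). PHYC was opposed to CRY1b (-0.88) and to COP1 (-0.82). Large values were common, since 2880 features had an r of at least 0.9 with PHYA.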

How the data were processed

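RNA-Seq libraries (12, with 3 per group) were made from leaves and grouped by their labels. The authors aligned reads to the MSU 7.0 genome, and the values they deposited are FPKM, unfiltered, in one column per library (0 columns were left unused). HISAT2 and StringTie are among the tools in the submitters' processing notes, without versions. Fragment counts were not used here, so the counting error of a value is unknown. Depth was estimated from the most common ratio of low FPKM values between 2 libraries, taking such values to rest on equal fragment counts. This put the other normal libraries at 1.03 to 1.31 relative to ZH11-N replicate 3. The FPKM of a library summed to 728628 to 952207.

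In R 4.3.3, limma 3.58.1 was fitted to log2(FPKM + 0.5) over all 4 groups without a replicate block, keeping 19979 features whose mean FPKM reached 1. Tests were two-sided with a variance trend and Benjamini-Hochberg adjustment over all features. A log2FC is on this scale and understates the change of low genes. Exact permutation tests kept the labels within genotypes (3 libraries against 3 alone allow no p under 0.1). The fit was tested on simulated data. Replicates are labelled as independent, but separate cultures are not described, so p-values measure the spread between these libraries.

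Genotypes shared pots by the labels, and within a watering condition the deviations from the group means of libraries that share a number correlated positively. The correlation of these deviations was 0.882, 0.486 and 0.507 under normal watering and 0.589, 0.580 and 0.211 under drought, and -0.127 to -0.0432 between conditions. Under normal watering numbers 2 and 3 correlated across genotypes more highly (0.717 and 0.600) than within their own number. Number 1 correlated negatively with 2 and 3 there (-0.761 to -0.659). Deviations from a group mean cancel out within the group. The value of 0.882 for number 1 thus brings negative ones with it, and these add no evidence of their own. Under drought SNAC1-D replicate 2 with ZH11-D replicate 3 gave 0.276, and the other pairs of unlike number were negative. The values thus bore out pairing by number for number 1, and did not tell 2 from 3 under normal watering.

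The 8 genes, the lists and the tests were chosen with earlier results of these data known. Named were the 8 genes, list genes with a published name, SNAC1, the 5 features most like OsPIL1 and the 1 most like each other gene. Other list loci, which no table used here annotates, are given as counts. Alternatives changed the pseudocount (0.1 or 1), the filter (none or a mean of 5), the scaling, the variance trend, the samples fitted, the block, the thresholds and the libraries. The ChIP-Seq intervals carry no gene names and were not used here, nor were their columns of the authors' own fold changes and p-values. No gene coordinates or sequences are given, since no annotation of the MSU 7.0 build was used here.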

Additional observations from a re-analysis of the deposited data

How the results depend on the processing

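The drought responses of PHYA and OsPIL1 kept their direction and passed in 23 of 23 alternatives in both genotypes, and 0 of the 8 genes passed between genotypes, or in the difference of the responses, under any alternative run. When both normal libraries numbered 1 were left out, the genes passing under drought numbered 6 in ZH11 and 5 in OE-19. With the DEG thresholds, 1 gene passed in ZH11 and 2 in the mean of both genotypes. Leaving out each library in turn gave 2 to 5 passing genes in ZH11, the 5 without ZH11-N replicate 1, 2 to 4 in OE-19 and 4 to 6 in the mean.

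Libraries that share a number were taken as pairs within a watering condition only. A replicate block within each watering condition changed no call of the 8 genes in any comparison (3 passing under drought in each genotype, 0 between genotypes). With the number as a block over all 12 libraries, 4 passed in each genotype, CRY2 being added with limma adjusted p-values of 0.00534 in ZH11 and 0.0125 in OE-19.

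Changes of sign were seen only for values that did not pass with all libraries, and they did not pass in these settings either. With each library scaled by its median ratio, PHYB under drought in OE-19 was -0.039 and CRY2 between genotypes under drought was 0.0016. With quantile normalization, CRY2 between genotypes under drought was 0.040, COP1 between genotypes under normal watering was -0.0081, and the differences of the responses of CRY1a and COP1 were 0.050 and 0.0015. Without both normal libraries numbered 1, CRY1a was -0.10 under drought in OE-19 and -0.049 in the mean of both genotypes, and CRY1b was 0.023 between genotypes under normal watering.

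When single libraries were left out, the log2FC under drought in ZH11 ran from -0.61 to 0.10 for COP1. In OE-19 it ran from -0.093 to 0.14 for PHYB, from -0.10 to 0.45 for CRY1a and from -0.78 to 0.11 for COP1. Between genotypes under normal watering it ran from -0.27 to 0.0038 for PHYA, -0.28 to 0.21 for PHYC, -0.34 to 0.27 for CRY1a, -0.23 to 0.27 for CRY1b, -0.030 to 0.19 for CRY2, -0.41 to 0.53 for COP1 and -0.14 to 0.33 for OsPIL1. Between genotypes under drought it ran from -0.073 to 0.0014 for PHYC, -0.18 to 0.11 for CRY2, -0.12 to 0.040 for COP1 and -0.34 to 0.15 for OsPIL1. The difference of the responses ran from -0.23 to 0.25 for PHYC, -0.37 to 0.24 for CRY1a, -0.39 to 0.10 for CRY1b, -0.25 to 0.038 for CRY2, -0.58 to 0.35 for COP1 and -0.40 to 0.12 for OsPIL1. Where a result changed, the cause was not tested. Depth was estimated only as a ratio, and its part in the width of the intervals was not tested.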
